A study of Mus musculus with 16 samples.

Results

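Dense clusters of distal open chromatin were described in C2C12 iMyoD1 cells, a mouse skeletal myoblast line. ATAC-seq marks open DNA by letting a transposase insert sequencing adapters there. Its peaks were compared at equal list length: the 14710 strongest peaks of each of 14 libraries, ranked by −log10 p, were merged into 26213 regions. A region was distal when its summit, the point of highest signal in its strongest peak, lay more than 1 kb from every annotated transcript start (GENCODE M21), which left 15878 regions. Distal neighbours whose edges lay within 12.5 kb were joined, and the 628 regions in groups of 5 or more are the members. They formed 113 dense clusters and made up 3.96% of distal and 2.40% of all regions.

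The line is polyclonal and carries doxycycline-inducible Halo-MyoD1 alleles, driven by the TRE3GS promoter, beside its endogenous Myod1 gene, and all 4 groups share this genotype. Under doxycycline (dox) only part of the nuclei express the transgene. The groups were growth medium without dox (GM no dox, 4 libraries), growth medium with dox (GM +dox, 4 libraries), serum-starved differentiation medium without dox (DM no dox, 3 libraries) and the same with dox (DM +dox, 3 libraries), each after 24 h. Growth medium cultures started from 75000 cells and differentiation cultures from 300000, so that medium and cell density cannot be told apart. The first replicate of both DM groups entered only the alternative with all 16 libraries, a choice taken from the methods of the study. Of 26 myogenic regulator genes, 14 (Myod1 among them) had a peak within 1 kb of the gene start in all 14 libraries, Myf5 had one in 6 and Myog in 0. Of 24 genes of other lineages 0 had one in all and 18 had one in none, but Gata4 had a peak in 12 and Krt14 and Pecam1 in 8 libraries each.

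Enhancers are stretches of open DNA away from gene starts at which transcription factors bind and raise the activity of a gene on the same chromosome. Some genes that define a cell type have many of them packed close together, and such stretches are called super-enhancers when they also carry very high levels of coactivators or of histone acetylation. Neither was measured in these libraries, so the clusters here are defined by spacing alone. MyoD1 is a basic helix-loop-helix factor that binds E-boxes (CANNTG), preferring CAGCTG, and drives the myogenic programme. AP-1, a dimer of Fos and Jun proteins, binds TGANTCA and is known to act at many enhancers of growing cells.

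The sequences below are the 201 bases centred on a summit, from GRCm38 (mm10), forward strand, 5′ to 3′, with CAGCTG and TGANTCA in capitals. The first 3 are the strongest region of each of the 3 largest clusters and are shown for the motifs they hold: chr15:66883853-66884053 between genes in the Tg cluster (1 CAGCTG), chr17:70720021-70720221 in an intron of Dlgap1 (2 TGANTCA) and chr19:32292102-32292302 in an intron of Sgms1 (1 TGANTCA). The region had a peak in all 14 libraries in each of the 3.
Tg: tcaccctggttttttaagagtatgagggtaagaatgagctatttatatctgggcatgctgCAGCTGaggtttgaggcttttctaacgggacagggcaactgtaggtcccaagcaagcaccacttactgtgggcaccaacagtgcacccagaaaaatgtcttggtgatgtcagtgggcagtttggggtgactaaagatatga
Dlgap1: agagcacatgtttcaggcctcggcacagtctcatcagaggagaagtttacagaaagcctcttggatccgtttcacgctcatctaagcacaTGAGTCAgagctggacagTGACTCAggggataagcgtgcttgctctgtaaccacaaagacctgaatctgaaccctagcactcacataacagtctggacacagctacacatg
Sgms1: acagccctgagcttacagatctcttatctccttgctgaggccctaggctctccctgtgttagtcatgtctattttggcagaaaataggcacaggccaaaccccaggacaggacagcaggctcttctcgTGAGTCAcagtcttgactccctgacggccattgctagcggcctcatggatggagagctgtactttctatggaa
The next 3 are the leading region with CAGCTG of clusters whose number of open regions differed between groups (described further on). They were picked by motif and peak strength, and a printed region need not be one that changed. They are intronic and lie at chr10:80757792-80757992 in Dot1l, chr8:94584509-94584709 in the Cpne2 cluster and chr9:14568584-14568784 in Amotl1. A peak was found there in 8, 1 and 7 libraries. Cpne2 overlaps 67.3% of the span of its cluster, and the intron of that window is not its own.
Dot1l: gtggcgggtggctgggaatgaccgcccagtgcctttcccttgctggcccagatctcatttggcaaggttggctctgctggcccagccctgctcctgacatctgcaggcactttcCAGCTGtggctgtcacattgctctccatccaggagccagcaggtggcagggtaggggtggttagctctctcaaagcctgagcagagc
Cpne2: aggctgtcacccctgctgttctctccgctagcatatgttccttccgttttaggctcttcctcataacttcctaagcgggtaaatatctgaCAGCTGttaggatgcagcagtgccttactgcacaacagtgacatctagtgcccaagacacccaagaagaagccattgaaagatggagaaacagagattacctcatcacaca
Amotl1: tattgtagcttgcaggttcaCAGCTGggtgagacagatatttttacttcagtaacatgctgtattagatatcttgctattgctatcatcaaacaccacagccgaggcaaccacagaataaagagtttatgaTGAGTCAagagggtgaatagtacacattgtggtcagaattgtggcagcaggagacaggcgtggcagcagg

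Most distal regions stood alone: 8974 had no distal neighbour within 12.5 kb, and 1937, 522 and 209 groups held 2, 3 and 4 regions. Of the dense clusters 73 held 5 regions, 28 held 6, 4 held 7, 6 held 8, 1 held 9 and 1 held 10. At the edge of the rule, groups of 4 had a median span of 19.4 kb with a peak in a mean of 7.12 libraries per region, and clusters of 5 a median span of 25.2 kb and 7.47 libraries. Spans ran from 10.4 to 54.9 kb (median 28.5 kb, 3.23 Mb in all), with a median gap of 5.29 kb between neighbours. The clusters overlapped a protein-coding gene in 74 cases, and 18 held a protein-coding start within their span. By summit, 55.6% of members lay in introns, 41.7% between genes and 2.71% in exons, against 54.0%, 41.5% and 4.51% of the distal regions outside dense clusters.

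**Figure D1:**
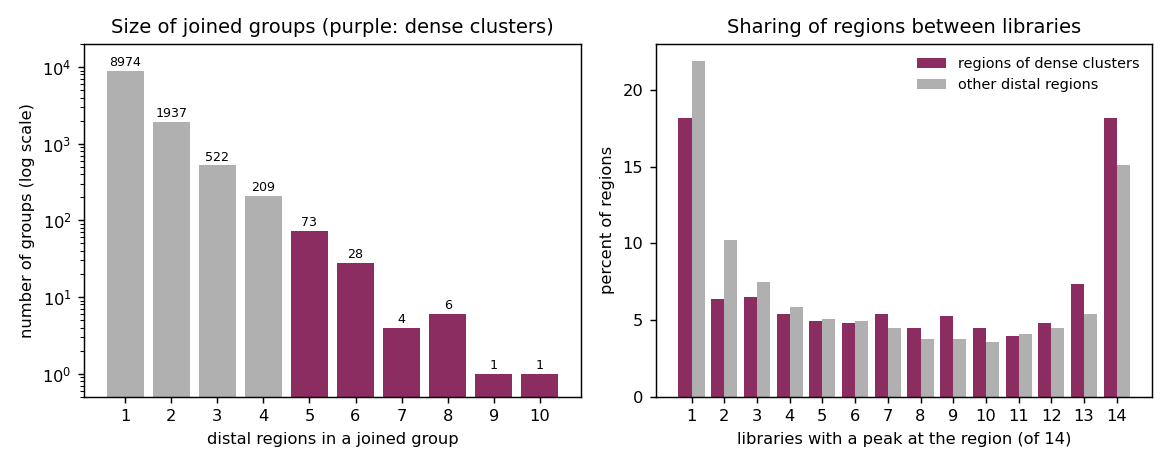
Left, number of joined groups (log scale) by the number of distal regions they hold, with dense clusters of 5 to 10 regions in purple, falling from 73 clusters of 5 to 1 of 10. Right, percent of regions by the number of the 14 libraries with a peak there, for members (purple) and other distal regions (grey), where members peak at 1 and at 14 libraries with 18.2% each.

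Dense clusters held both widely shared and rarely seen regions. A region is called open in a library when that library's list of 14710 has a peak there. Of the 628 members 114 (18.2%) had such a peak in all 14 libraries and 114 (18.2%) in 1 library alone. The same shares were 15.1% and 21.9% of the other distal regions. With weaker deposited peaks counted as well, 260 members had a peak in all 14 libraries. At least 1 region open in all 14 libraries was found in 78 clusters, a region seen in 1 library in 75, and both in 47, while 0 clusters had all of their regions open throughout. The regions seen once did not come evenly from the libraries. GM no dox replicate 1 alone had 35 of the 114, and the others had 0 to 15 each. Its deposited list held exactly 14710 peaks and reached down to a −log10 p of 3.94, where the other lists stopped at 11.7 to 54.6. The part of this reach was not tested, and DM +dox replicate 2, which stopped at 54.6, had 15. Built without that library, the rule gave 90 clusters with 499 regions, and built without any other single library it gave 106 to 113 clusters.

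The largest cluster lay at chr15:66844011-66894387 and held 10 regions over 50.4 kb. It overlaps, with 13.3% of its span, Tg, the gene of the thyroid hormone precursor thyroglobulin, and its span holds the start of Ccn4, which encodes a secreted matricellular protein. Of its regions 5 held CAGCTG and 4 TGANTCA, and 2 were open in all 14 libraries. The number open was 7, 7, 4 and 4 in GM no dox, 7, 8, 5 and 5 in GM +dox, 6, 4 and 4 in DM no dox and 6, 6 and 3 in DM +dox. All 4 groups overlapped.

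The second, at chr17:70709715-70754061, held 9 regions within Dlgap1, which encodes a scaffold protein of synapses. All were intronic, 4 were open in all 14 libraries and 5 held TGANTCA. Each library had 4 to 7 of them open, with no group apart from the rest. Sgms1, a sphingomyelin synthase gene, held 8 regions over 54.9 kb (chr19:32291892-32346768), the longest span of all, of which 3 to 7 were open in a library. The cluster at chr3:121573736-121617974, whose nearest start is that of the choline transporter-like gene Slc44a3 at 41.3 kb, was the most widely shared of the large clusters described here. Its 8 intergenic regions had a median of 13.5 libraries with a peak, and all 8 were open in 3 libraries.

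Shb, which encodes an SH2-domain adaptor, held 8 intronic regions at chr4:45435905-45475306, of which 2 to 5 were open. Ahnak, the gene of a giant scaffold protein under the cell membrane, had 8 regions at chr19:9052946-9083265. Between 3 and 5 of them were open in the GM libraries and between 4 and 7 in the DM libraries, and these ranges overlapped. Bahcc1, a gene of a chromatin protein with a BAH domain, held 8 intronic regions at chr11:120240325-120270089 with 2 to 5 open.

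The clusters of Epha2, an ephrin receptor gene, and of Smad3, which carries TGF-beta signals to the nucleus, held 7 regions each, at chr4:141260079-141311489 and chr9:63702479-63746554. At Epha2 4 to 6 regions were open in every library. At Smad3 the count was 5, 4, 2 and 3 in GM no dox, 5, 5, 3 and 4 in GM +dox, 3, 3 and 2 in DM no dox and 4, 2 and 2 in DM +dox, with 0 of its regions open in all 14. None of these large clusters had non-overlapping groups in any of the 4 comparisons.

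**Figure D2:**
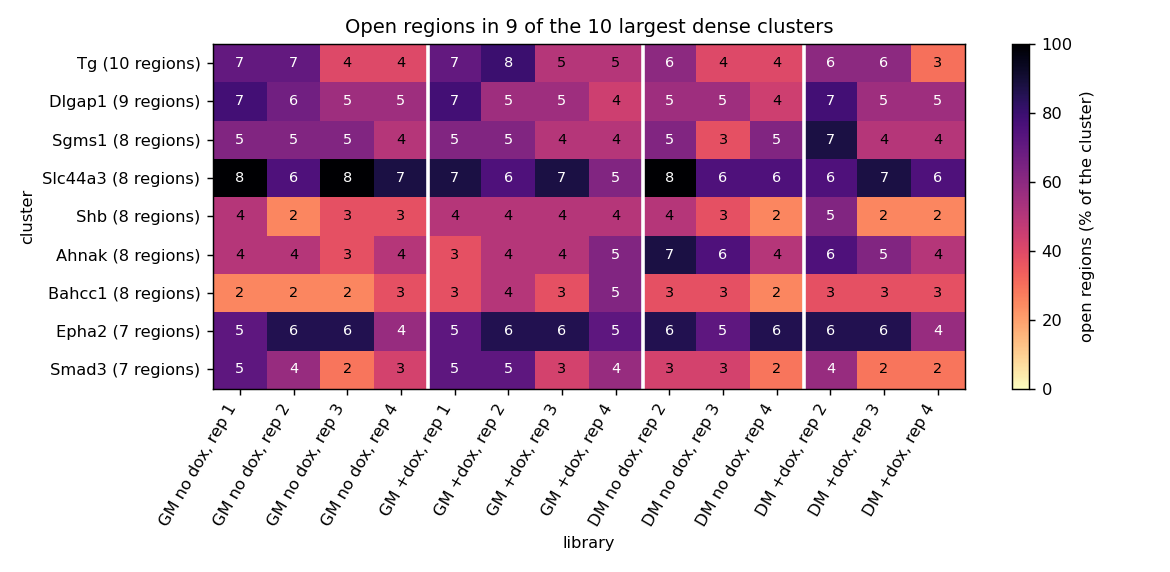
Number of open regions in 9 of the 10 largest dense clusters (rows) in each of the 14 libraries (columns, groups separated by white lines), shaded by the percent of the cluster's regions that were open. Slc44a3 (5 to 8 of 8 open) is the darkest line and Bahcc1 (2 to 5 of 8 open) among the lightest.

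Genes known for particular roles in muscle cells and their precursors were looked up next, counting a gene when a dense cluster overlapped it or lay within 50 kb. Of all 21755 protein-coding genes, 270 (1.24%) had such a cluster. The actin cytoskeleton and focal adhesion list had 4 of 31 genes: Ahnak (8 regions), Myh9, the heavy chain of non-muscle myosin IIA (6 regions, chr15:77798008-77821777), Vcl, the adhesion protein vinculin (6 regions from 4.93 kb away, chr14:20885182-20924468), and Lpp, a LIM-domain protein of focal adhesions (5 regions). The YAP and TGF-beta list had 2 of 23, Smad3 and Ccn1, a matricellular YAP target (5 regions, 34.8 kb away). Adhesion and cell surface genes had 2 of 25, the hyaluronan receptor Cd44 (6 regions, 35.3 kb away) and the integrin Itgb3 (5 intronic regions). Extracellular matrix genes had 1 of 25, the basement membrane collagen Col4a2 (6 regions), and proliferation and growth genes 1 of 22, the cytokine Lif (6 regions, 3.77 kb away).

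Of the 26 myogenic regulators 1 had a dense cluster, Nfix, a nuclear factor I gene of fetal myogenesis, with 7 intronic regions at chr8:84730527-84761443. None of the 29 sarcomere genes, the 14 AP-1 and immediate early genes or the 24 genes of other lineages had one. The lists differ in gene length and in how much distal chromatin surrounds them: the median number of distal regions in the same window was 1.00 for all genes, 5.00 for the adhesion and the matrix lists, 2.00 for the actin and adhesion list, 3.00 for the myogenic regulators and 1.00 for the sarcomere genes. Their part in these counts was not tested.

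Within 100 bp of the summit, members held CAGCTG in 27.9% of cases (175 of 628), distal regions outside dense clusters in 22.6% and promoter regions in 12.5%. For TGANTCA the shares were 42.8% (269), 49.8% and 9.93%. Groups of 2 to 4 regions lay between lone regions and dense clusters for both motifs, with CAGCTG at 21.6% alone, 24.1% in groups of 2 to 4 and 27.9% in dense clusters and TGANTCA at 51.1%, 47.8% and 42.8%. At least 1 CAGCTG was found in 95 clusters, TGANTCA in 107, both in 92 and neither in 3. Any E-box (CANNTG, which includes CAGCTG) was found in 77.1% of members and 71.8% of other distal regions. The TEAD motif CATTCC (23.7% and 21.9%) and the RUNX motif TGTGGT (31.8% and 32.0%) had shares close to those of other distal regions. So did the MEF2-like pattern CTANNNNTAG (2.55% and 2.62%), which allows any base at N. Over all 26213 regions, CAGCTG occurred in 18.7%, CANNTG in 61.9%, TGANTCA in 33.9%, CATTCC in 17.0%, TGTGGT in 23.4% and CTANNNNTAG in 2.27%. Both strands were searched. The median GC content around the summit was 53.2% in members and 50.2% in other distal regions, and its part in the motif shares was not tested.

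Dense-cluster peaks were taller than other distal peaks but rose from higher ground. The deposited fold enrichment and p-value of each peak together fix the whole number of fragments at its summit and the local background that MACS2 used, and both were recovered for 100% of peaks. In units of each library's genome-wide background, the median local background at dense-cluster peaks was 3.00 to 11 over the 14 libraries, and at other distal peaks 1.81 to 5.76. The ratio of these medians was 1.56 to 2.01 (median 1.67). The summit pileup was 1.22 to 1.32 times (median 1.25) that of other distal peaks, and the deposited fold enrichment 0.739 to 0.916 times (median 0.828). Each of the 3 ratios kept to its side of 1 in all 14 libraries. These measures were used to call and rank the peaks, so they describe the members and are not tested. The rule also asks for neighbouring peaks within 12.5 kb, and a local background can take in fragments of such neighbours. A higher local background and a lower fold enrichment may thus be built into the choice of members. The part of the neighbours was not tested.

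**Figure D3:**
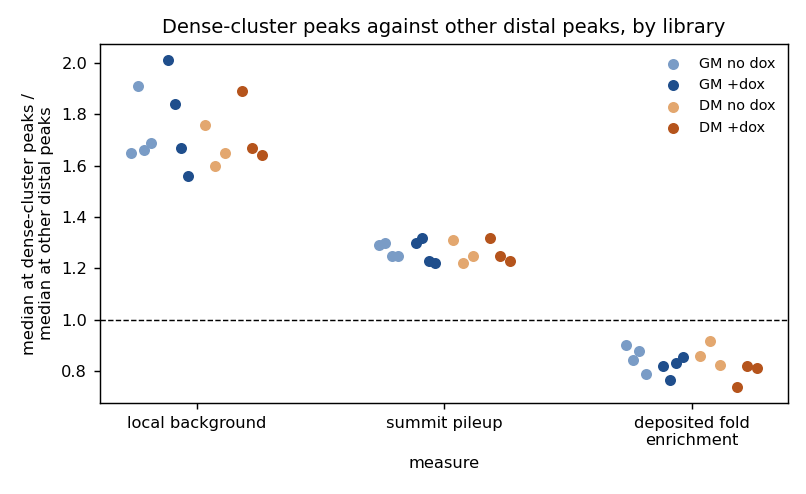
Ratio of the median at dense-cluster peaks to that at other distal peaks in each of the 14 libraries (points, coloured by group), for local background, summit pileup and deposited fold enrichment. Local background lies at 1.56 to 2.01 and fold enrichment at 0.739 to 0.916, on opposite sides of the dashed line at 1.

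Dense clusters were spread unevenly over the genome. Members were 8.15% of the distal regions of chromosome 19, 8.13% on chromosome 15, 6.82% on chromosome 4 and 5.48% on chromosome 11, down to 1.42% on chromosome 7 and 0 of 210 on chromosome X. The median local background at regions standing alone was 2.34, 2.37, 2.23 and 2.20 times the genome-wide value on the first 4 of these, 2.07 on chromosome 7 and 1.75 on chromosome X. Chromosomes 8 and 17, with background as high (2.36 and 2.30), had 4.54% and 2.13%. The part of regional background or copy number in this order was not tested.

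The first question of the design was whether induced MyoD1 or differentiation changed how much of the open distal chromatin lay in dense clusters. Of the distal peaks in each list, 4.55%, 4.47%, 4.44% and 4.42% lay in dense clusters in GM no dox and 4.52%, 4.42%, 4.47% and 4.61% in GM +dox. The values were 4.28%, 4.08% and 4.24% in DM no dox and 5.05%, 4.41% and 4.48% in DM +dox. Thus the GM groups overlapped, at means of 4.47% ± 0.0581 and 4.50% ± 0.0794 (SD, n = 4 each). All DM no dox libraries lay below all others, at 4.20% ± 0.107 (SD, n = 3), and DM +dox, at 4.65% ± 0.349 (SD, n = 3), lay above DM no dox and overlapped GM +dox. The peaks themselves chose the members, so no test was made. The order did not hold when peaks were ranked by fold enrichment: the mean with dox minus that without was then −0.539 points in GM and −0.518 points in DM, where it was 0.0341 and 0.447 points by −log10 p. In lists of the 7355 strongest peaks both were below 0, at −0.0463 and −0.00456 points. Without DM +dox replicate 2, the library at 5.05%, the DM difference was 0.247 points, and without GM +dox replicate 4 the GM difference was −8.53e-04 points.

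Motif content was not used to choose the members and was tested. In each library's own peaks at dense clusters, CAGCTG was found in 21.6%, 22.2%, 24.0% and 24.9% in GM no dox and in 25.7%, 24.3%, 25.8% and 28.2% in GM +dox. It was found in 26.4%, 26.6% and 27.1% in DM no dox and in 30.6%, 29.6% and 32.6% in DM +dox. Every DM +dox library exceeded every other library, and every DM no dox library exceeded every GM no dox library, while the 2 GM groups overlapped. Counting error is wide at these numbers, with a 95% Wilson interval of 17.7% to 26% in the lowest library (82 of 380 peaks) and 27.5% to 38.2% in the highest (95 of 291).

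The mean was 23.2% ± 1.54 in GM no dox and 26% ± 1.61 in GM +dox (SD, n = 4 each), a difference of 2.86 points. It was 26.7% ± 0.373 in DM no dox and 31.0% ± 1.53 in DM +dox (SD, n = 3 each), a difference of 4.26 points. DM minus GM was 3.54 points without dox and 4.94 points with dox. Two-sided exact permutation tests over libraries gave p = 0.0571, 0.10, 0.0571 and 0.0571 in that order, all with adjusted p = 0.267 over the 16 motif tests, so none passed. Compared within replicate numbers, the share was higher with dox in 4 of 4 GM pairs (by 1.89 to 4.14 points) and 3 of 3 DM pairs (by 3.02 to 5.53 points), and higher in DM in 3 of 3 pairs under dox (by 3.8 to 6.27 points). An exact sign-flip permutation over these pairs gave p = 0.125, 0.25 and 0.25, the smallest it can give with 4, 3 and 3 pairs. The smallest p the designs allow is 0.0286 with 4 libraries in either group and 0.10 with 3 against 3. The difference between the dox effects in DM and GM was 1.40 points (exact permutation within each medium, p = 0.596). With the 2 left-out libraries included the dox difference in DM was −0.316 points, since the left-out DM no dox library had CAGCTG in 10 of only 23 dense-cluster peaks. With neighbours joined within 5 kb, which leaves 8 clusters, differentiation without dox was −0.764 points.

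The other distal peaks had the same order of group means. In these CAGCTG was found in 19.9% ± 0.714 in GM no dox, 22.3% ± 1.35 in GM +dox, 24.0% ± 1.68 in DM no dox and 27.6% ± 1.37 in DM +dox (SD, n = 4, 4, 3 and 3). Dense-cluster peaks exceeded the other distal peaks of the same library in 14 of 14 libraries, by 1.24 to 4.32 points. The libraries share many of these regions, so this excess was not seen 14 independent times. Whether this excess differed between groups was tested, and it did not pass in any comparison: it changed by 0.459 points with dox in GM, by 0.648 with dox in DM, by −0.534 with differentiation without dox and by −0.346 with differentiation under dox (exact permutation p = 0.486, 0.700, 0.571 and 0.314). These changes depend on single libraries, and that with dox in GM ranged from 0.0305 points without GM no dox replicate 1 to 0.805 without GM no dox replicate 3.

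TGANTCA was found in 41.6%, 49.6%, 49.4% and 48.2% of dense-cluster peaks in GM no dox and in 47.8%, 42.5%, 46.2% and 42.6% in GM +dox. In DM no dox it was in 45.4%, 46.1% and 44.7% and in DM +dox in 44.0%, 46.3% and 43.0%. The groups of all 4 comparisons overlapped, with means of 47.2%, 44.8%, 45.4% and 44.4%, and the exact permutation p-values ran from 0.286 to 0.914. GM no dox replicate 1, which reaches furthest into weak peaks, was the lowest of all. The share was below that of other distal peaks in 14 of 14 libraries, with differences of −4.14 to −10.1 points. Here too the libraries share regions and are not independent. The mean difference was −5.56 points in GM no dox, −8.10 in GM +dox, −8.52 in DM no dox and −7.76 in DM +dox. It changed by −2.54 points with dox in GM and by −2.96 points with differentiation without dox (exact permutation p = 0.0857 and adjusted p = 0.267 for both), and the other 2 comparisons had p = 0.60 and 0.771.

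**Figure D4:**
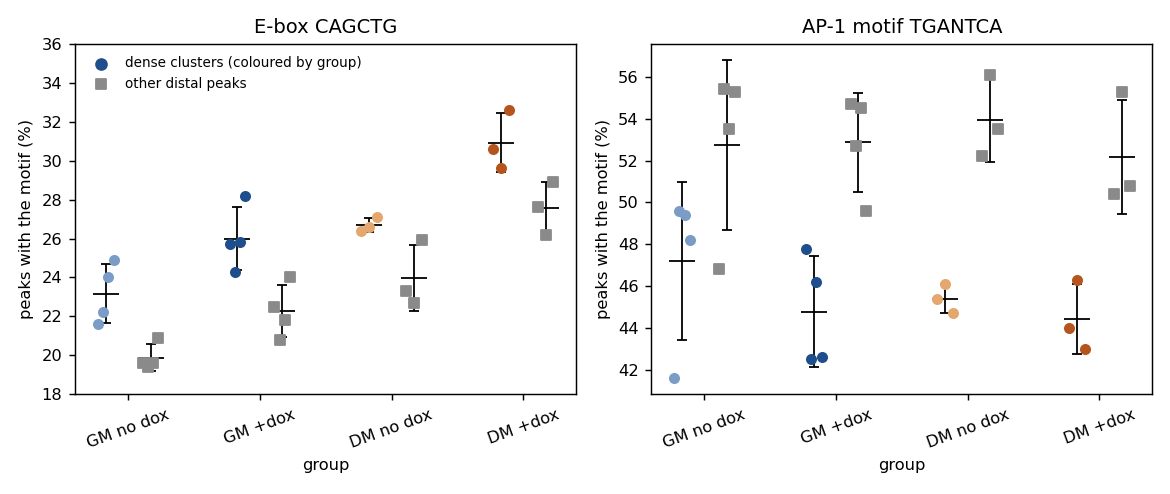
Percent of peaks with CAGCTG (left) and TGANTCA (right) within 100 bp of the summit, by group, with 1 point per library for dense clusters (coloured circles) and other distal peaks (grey squares), and bars for mean ± SD. The vertical axes do not start at 0. Dense-cluster peaks lie above other distal peaks for CAGCTG, up to 32.6% in DM +dox, and below them for TGANTCA.

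Few members were gained or lost in the cut lists. A region was called all-or-none when every library of 1 group and none of the other had a peak there in its list of 14710. Such a region can still have a weaker deposited peak beyond the cut. The region at chr15:99332895-99333845 in Fmnl3, lost in both differentiation comparisons, had a deposited peak in every library. With dox in GM, 2 of the 560 members with a peak in either group were gained (0.357%) and 1 lost (0.179%), where the background over all regions is 0.163% and 0.124%. Both gained regions held CAGCTG (38.7% of the 31 gained outside dense clusters did) and lay at chr1:89538381-89539066 in Agap1, a gene of an Arf GTPase-activating protein, and at chr2:102936933-102937352 in the cluster near Cd44. With dox in DM, 8 of 507 were gained (1.58%) and 4 lost (0.789%), with a background of 0.824% and 0.787%. Of the distal regions outside dense clusters, 1.14% were gained and 1.22% lost in DM, and 0.236% and 0.145% in GM. Of the 8 gained regions 5 held CAGCTG, and of the 4 lost 0 did, where of the all-or-none distal regions outside dense clusters 38.6% of the gained and 18.4% of the lost did. Dot1l had 2 of the 8, 1 of them with CAGCTG, and the others with CAGCTG lay in clusters that include those of Spry2, Azin1 and Arhgef10l.

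Differentiation without dox gained 6 of 555 members (1.08%) and lost 12 (2.16%), against a background of 0.984% and 1.04%. With dox, 10 of 543 were gained (1.84%) and 9 lost (1.66%), against 1.11% and 1.10%. Of the distal regions outside dense clusters, 1.38% were gained and 1.41% lost without dox, and 1.5% and 1.51% with dox. Against these, the share of members gained without dox was lower, and the other shares were higher. The 12 lost without dox fell in 10 clusters, with 2 each in Dlg5, which encodes a scaffold protein of cell polarity, and M1ap, a gene of meiosis. CAGCTG was in 1 of the 6 gained and 4 of the 12 lost without dox, and in 4 of the 10 gained and 3 of the 9 lost with dox. Outside dense clusters it was in 37.5% and 14.4%, and in 41.4% and 12.2%, of the distal regions gained and lost. The counts are small and the members were chosen from the same peaks, so no more is read from them. Leaving out a library loosens the rule, so calls can then be added but not lost. The share over all regions under the same omission is not given here. The share of members called in both directions was 2.37% with dox in DM and 3.47% to 6.39% without 1 of the 6 libraries. It was 3.5% for differentiation with dox and 8.19% without DM +dox replicate 2. Leaving out GM +dox replicate 4 gave 6.51% there. With dox in GM it was 0.536%, and 1.97% without GM no dox replicate 4, and for DM no dox against GM no dox it was 3.24%, and 5.68% without DM no dox replicate 2.

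Counted per cluster, dox in GM gave 0 clusters whose libraries did not overlap in the number of open regions (background over all joined groups, most of them single regions, 0.262% higher and 0.146% lower, and 0.228% and 0.190% over groups of 2 to 4 regions). With dox in DM, 3 of the 113 clusters had more open regions (2.65%, background 1.29%, groups of 2 to 4 1.5%) and 1 fewer (0.885%, background 1.27%, groups of 2 to 4 1.23%). Dot1l, which encodes the histone H3 lysine 79 methyltransferase, differed most (chr10:80751268-80774909, 5 regions). It had 4, 3 and 3 open regions in DM +dox against 1, 1 and 1 in DM no dox, and in growth medium 4, 3, 2 and 3 with dox against 2, 2, 1 and 2 without. Higher counts thus went with dox in both media, without overlap in DM and with 1 tie at 2 in GM. The sequence of its leading region with CAGCTG, printed above, is 1 of the 2 gained there.

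The cluster near Tarbp1, an RNA methyltransferase gene (chr8:126517182-126551440), had all 5 regions open in the 3 DM +dox libraries and 4, 3 and 4 in DM no dox. At Myh9 all 3 DM +dox libraries had 5 of 6 open and all DM no dox libraries 4, but GM no dox had 3, 5, 5 and 5, as high. Cpne2, a gene of a calcium-dependent membrane-binding copine (chr8:94541238-94584738, 6 regions), was the 1 cluster that was lower with dox in DM, with 2 open in each DM +dox library and 4, 3 and 3 in DM no dox. As GM no dox had 2 in each library, Cpne2 was also the 1 cluster higher with differentiation without dox (0.885%, background 1.70%, groups of 2 to 4 1.55%).

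In differentiation without dox 4 clusters had fewer open regions in DM (3.54%, background 1.69%), close to the 2.92% of groups of 2 to 4 regions. M1ap (chr6:82996570-83024989) had 5, 5, 5 and 3 of 5 regions open in GM no dox and 2, 1 and 2 in DM no dox. Rara, the retinoic acid receptor alpha gene (chr11:98930717-98964033), had 5, 4, 5 and 3 open in GM no dox and 2, 2 and 2 in DM no dox, and Dlg5 (chr14:24199790-24232884) had 3, 3, 4 and 3 and then 2, 1 and 1. The fourth was Hdac7, a histone deacetylase gene, with 5, 3, 4 and 3 and then 2, 2 and 2. With dox, 3 clusters had more open regions in DM (2.65%, background 1.61%, groups of 2 to 4 1.62%) and 2 had fewer (1.77%, background 1.69%, groups of 2 to 4 2.43%). Amotl1, which encodes a YAP-binding angiomotin family protein (chr9:14568428-14604615, 6 regions), had 2, 2, 2 and 1 open in GM +dox and 4, 3 and 3 in DM +dox, and without dox it had 1, 1, 1 and 2 in GM and 2, 4 and 4 in DM. Myh9 and Tarbp1, at 5 in every DM +dox library, were the others. Myo1d, an unconventional myosin gene (chr11:80484196-80500098), had 5, 4, 3 and 3 in GM +dox and 2, 1 and 1 in DM +dox, and M1ap had 3, 3, 2 and 2 and then 1, 1 and 1. The comparisons share groups with each other, so these counts are not independent. Here too leaving out a library can add calls but not remove them. The share over all joined groups under the same omission is not given. Leaving out GM no dox replicate 1 gave non-overlapping counts in 3.54% of clusters with dox in GM, while differentiation without dox gave 13.3% when DM no dox replicate 2 was left out. Under dox, differentiation gave 15% without DM +dox replicate 2, and the dox comparison in DM, at 3.54% with all libraries, gave 6.19% to 9.73% without any 1 of its 6.

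Summit pileup was compared where a peak was deposited in all 14 libraries, which held for 11011 of the 26213 regions and for 260 of the 628 members (41.4%), in 105 clusters, now counting weaker peaks beyond the 14710 as well. The other 368 members were not tested. Pileups were divided by the library's median over the 11011 regions and tested on the log2 scale with limma, with Benjamini-Hochberg adjustment over all of them. With dox in GM 0 of the 260 members passed at adjusted p under 0.05, and 1 region of all passed (0.00908% higher, 0% lower). With dox in DM 0 members were higher (background 0%) and 1 was lower (0.385%, background 0.118%). At an unadjusted limma p under 0.05, 6 members were higher (2.31%) and 13 lower (5.00%) in GM, against 1.81% and 2.56% of all regions. In DM 9 were higher (3.46%) and 21 lower (8.08%), against 2.46% and 5.95%. With the replicate number as a block, which the data pair in these 2 comparisons, limma called 3 members higher and 2 lower in GM (background 0.481% and 0.636%), and 9 higher and 14 lower in DM (3.46% and 5.38%, background 1.54% and 4.55%).

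The differentiation comparisons had more calls. Without dox 1 of 260 members was higher (0.385%, background 0.590%) and 11 were lower (4.23%, background 1.82%). With dox 4 were higher (1.54%, background 0.745%) and 14 lower (5.38%, background 4.12%), or 17 and 50 with the block (background 4.49% and 10.9%). With the replicate as a block the calls without dox were 16 higher and 46 lower (background 5.51% and 8.84%). There only 2 of 3 same-numbered pairs of libraries deviated together. At an unadjusted limma p under 0.05, 4.62% of members were higher and 18.8% lower without dox, against 8.20% and 10.2% of all regions. With dox these shares were 5.38% and 20.8%, against 6.90% and 12.5%. The counts depend on single libraries. Without dox, 12 calls became 5, 3, 5 and 10 without GM no dox replicate 1, 2, 3 or 4. They became 8, 4 and 2 without DM no dox replicate 2, 3 or 4. With dox, 18 became 6, 8, 6 and 30 without GM +dox replicate 1, 2, 3 or 4. They became 25, 10 and 6 without DM +dox replicate 2, 3 or 4. The distal regions outside dense clusters had 2.83% lower without dox and 7.10% lower with dox. The median log2 difference of members was −0.14 without dox and −0.13 with dox, that of other distal regions −0.11 and −0.16, and that of promoter regions 0.15 and 0.17. These values are relative to the median region of each library. When pileups were divided by the genome-wide background instead, the median region itself shifted by 0.70 (log2) with dox in GM, 0.74 with dox in DM, 0.10 with differentiation without dox and 0.14 with dox, and limma called 0 of the 260 members in every comparison.

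The members named here were chosen after their values were seen, as those that changed most. Values are multiples of the library's median pileup. The region at chr19:46478310-46479661 in Sufu, an inhibitor of Hedgehog signalling, had 1.44, 1.02, 1.11 and 1.07 in GM no dox, 1.18, 1.18, 1.14 and 1.14 in GM +dox, 2.54, 1.81 and 2.26 in DM no dox and 2.50, 2.28 and 2.26 in DM +dox. It rose in both differentiation comparisons without overlap, by 0.93 ± 0.16 (log2, SE) without dox (limma adjusted p = 0.00395) and 1.02 ± 0.16 with dox (limma adjusted p = 0.00117). The largest rise with dox was 1.65 ± 0.32 (log2, SE) at chr6:72253921-72255071 near Atoh8, a bHLH factor gene, where GM +dox had 0.460, 0.318, 0.420 and 0.837 and DM +dox 1.76, 1.26 and 1.49 (limma adjusted p = 0.00471).

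At chr12:17722800-17723277 in Hpcal1, which encodes a neuronal calcium sensor, GM no dox had 2.19, 1.52, 1.43 and 0.764 and DM no dox 0.60, 0.476 and 0.277, a log2 difference of −1.68 ± 0.39 (SE, limma adjusted p = 0.0216), and with dox it was −1.48 ± 0.39 (limma adjusted p = 0.0291). At chr8:94551251-94551961 in Cpne2, GM +dox had 2.08, 2.34, 1.64 and 1.49 and DM +dox 0.796, 0.689 and 0.595, a log2 difference of −1.43 ± 0.20 (limma adjusted p = 4.06e-04). Without dox that difference was −1.08 ± 0.20 (limma adjusted p = 0.00500). Another region of the same cluster, chr8:94569367-94569693, was among those gained with differentiation without dox. It holds no CAGCTG and is not the region whose sequence is printed above. The 1 member lowered by dox in DM lay at chr9:57618918-57619281 in Lman1l, with 1.29, 1.81 and 1.38 in DM no dox and 0.628, 0.852 and 0.619 in DM +dox (−1.09 ± 0.21, limma adjusted p = 0.0329). It lost the call when any of 5 of the 6 DM libraries was left out.

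**Figure D5:**
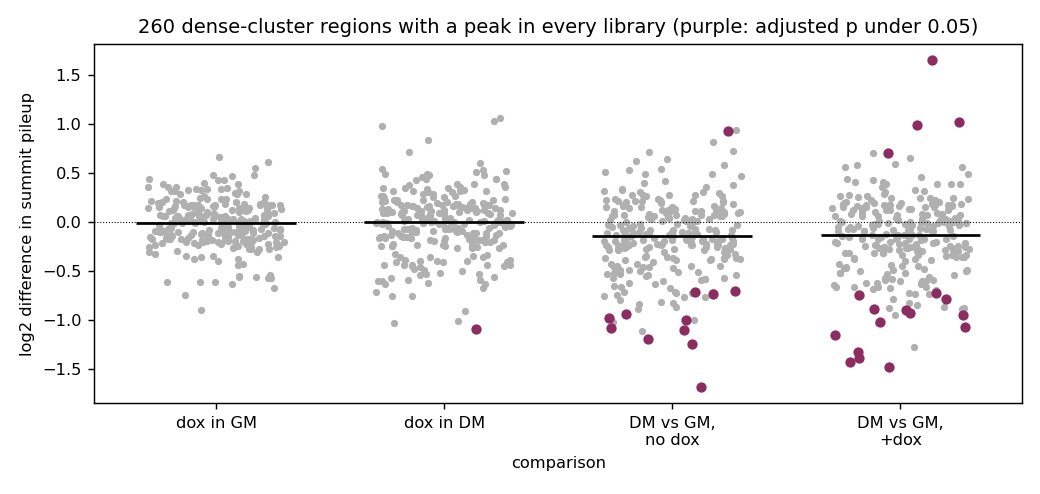
Log2 difference in summit pileup of the 260 members with a peak in every library, for the 4 comparisons, with called members (adjusted p under 0.05) in purple and the median as a black line. Called members number 0, 1, 12 and 18 from left to right and lie mostly below 0 in the 2 differentiation comparisons.

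Neighbouring regions of a cluster were weakly alike across libraries. Over the 14 libraries, the pileups of 92 adjacent pairs within dense clusters had a median correlation of 0.272 (quartiles 0.104 and 0.475), of 539 pairs in groups of 2 to 4 a median of 0.349, and of 961 adjacent distal pairs more than 12.5 kb and up to 100 kb apart a median of 0.192. The pairs share libraries, depth and base composition, so these values are descriptive.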

How the data were processed

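ATAC-seq peaks of C2C12 iMyoD1 myoblasts were analysed in 14 of 16 libraries. The authors aligned reads to mm10, removed blacklisted regions with the nf-core/atacseq pipeline and ran MACS2 (narrow peaks) separately for every library, without pooling. The MACS2 version is not given in the sources used here. The deposited lists hold a score, a fold enrichment, a −log10 p and a −log10 q for each peak, and the score was not analysed. The fold enrichment is the ratio of summit pileup to local background after the same constant is added to both. They hold no read counts, so depth is unknown. As depth-related measures, the kept lists held 14710 to 58587 peaks and the left-out lists 1287 and 14236, and the genome-wide background was 0.339 to 1.13 fragments per base in the kept libraries.

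Lists were cut to the 14710 strongest peaks by −log10 p (ties in file order), merged, and joined into clusters as described in the report. The deposited fold and p were solved for a whole-number pileup and a local background. Motifs were searched on both strands within 100 bp of each summit in GRCm38. Motif shares were compared by two-sided exact permutation over libraries with Benjamini-Hochberg adjustment over 16 tests, and Wilson 95% intervals cover counting error only. Log2 summit pileup at 11011 regions was fitted with limma 3.58.1 in R 4.3.3, and all else used Python 3.11.15 with numpy 2.4.6, pandas 2.3.3, scipy 1.17.1, pysam 0.24.0 and matplotlib 3.10.9. In simulated data limma found 60.0% to 66.0% of regions changed by 1 on the log2 scale and 97.0% to 99.0% of those changed by 2 in the 4 comparisons.

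Same-numbered libraries deviated together from their group means (r of 0.243 to 0.660 with dox in GM, 0.257 to 0.624 with dox in DM and 0.306 to 0.651 for differentiation with dox), so these comparisons were also fitted with the replicate as a block. With dox in GM, replicate 3 had r of 0.243 with its own number and 0.297 with another. No 2 libraries shared more than 0.298% of intervals. The labels call the replicates biological, and p-values measure the spread between these libraries. Clusters named are the 10 with most regions, up to 4 per gene list, and up to 3 per comparison and direction among those whose groups did not overlap, of which 1 large cluster is not reported here. Sequences are from the strongest region of the 3 largest clusters and the leading region with CAGCTG of changed clusters, without windows that overlap an exon. The members, lists and tests were chosen with earlier results of these data known.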

Additional observations from a re-analysis of the deposited data

Results flagged for a closer look

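The ratio of local background at dense-cluster peaks to that at other distal peaks was 1.91 in GM no dox replicate 2, with a gap to the other 3 libraries of its group past Dixon's critical value. The measure helped to choose the peaks, so this is a description and not a test. It was 1 of 16 sets of 4 libraries so examined, and chance alone picks out about 1 in 20.

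DM +dox replicate 1, a library left out of the comparisons, had 4.81% of its distal peaks in dense clusters and CAGCTG in 29.4% of its dense-cluster peaks, both above each of the 3 kept DM no dox libraries. Its list held 14236 peaks.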

How the results depend on the processing

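The 16 motif tests passed under no alternative run (lowest adjusted p 0.152 over all of them). Of 636 values recomputed 477 stayed within the limit set for their kind. Tested differences had to keep their sign and outcome, and cluster shares had to stay within the SD between libraries. Percents had to stay within a Wilson counting interval, and counts within a fixed factor. Below, a share or excess is the difference between group means in percentage points, where the excess is dense-cluster minus other distal peaks and the cluster share is that of distal peaks in dense clusters. All-or-none and non-overlap are percents of members and clusters in both directions. The cause of each change was not tested.

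With peaks ranked by fold enrichment, the cluster share was −0.539 (dox in GM), −0.518 (dox in DM), −0.150 (DM vs GM no dox), −0.130 (DM vs GM +dox), the TGANTCA share was 1.19 (dox in DM), 0.0251 (DM vs GM +dox), the CAGCTG excess was 0.175 (DM vs GM no dox) and the all-or-none was 0.649% (DM vs GM no dox). With the 7355 strongest peaks, the cluster share was −0.0463 (dox in GM), −0.00456 (dox in DM), 0.0284 (DM vs GM no dox), the CAGCTG excess was −1.57 (dox in DM), the TGANTCA excess was −6.59 (dox in DM), 3.76 (DM vs GM no dox), −0.841 (DM vs GM +dox), the TGANTCA share was 4.77 (DM vs GM no dox), the all-or-none was 0% (dox in GM), 0% (DM vs GM no dox), the non-overlap was 0% (dox in DM), 0% (DM vs GM no dox), 0% (DM vs GM +dox) and there were 12 clusters and 64 regions in clusters. With fixed windows of 250 bp either side of summits, the TGANTCA excess was −0.124 (DM vs GM +dox). With joining within 5 kb, the CAGCTG excess was −0.273 (dox in GM), 9.44 (DM vs GM +dox), the TGANTCA share was 1.61 (dox in DM), the cluster share was 0.0364 (dox in DM), −0.0183 (DM vs GM no dox), the CAGCTG share was −0.764 (DM vs GM no dox), the TGANTCA excess was −7.34 (DM vs GM +dox), the all-or-none was 0% (dox in GM), 0% (DM vs GM no dox), 5.71% (DM vs GM +dox), the non-overlap was 0% (dox in DM), 0% (DM vs GM no dox), 0% (DM vs GM +dox) and there were 8 clusters and 42 regions in clusters. With joining within 25 kb, the cluster share was −0.206 (dox in GM), 0.714 (dox in DM), −1.13 (DM vs GM no dox), −0.207 (DM vs GM +dox), the TGANTCA excess was −0.522 (dox in DM), −0.799 (DM vs GM +dox) and there were 390 clusters and 2540 regions in clusters. With at least 4 regions per cluster, the CAGCTG excess was −0.325 (dox in GM), 0.203 (DM vs GM +dox), the cluster share was −0.134 (dox in GM), −0.808 (DM vs GM no dox) and there were 322 clusters and 1464 regions in clusters. With at least 8 regions, the TGANTCA share was 2.08 (dox in DM), 1.48 (DM vs GM no dox), 4.99 (DM vs GM +dox), the cluster share was 0.0277 (dox in DM), 0.0109 (DM vs GM no dox), the TGANTCA excess was 0.411 (DM vs GM no dox), the all-or-none was 0% (dox in GM), 0% (dox in DM), 1.67% (DM vs GM no dox), the non-overlap was 0% (dox in DM), 0% (DM vs GM no dox), 0% (DM vs GM +dox) and there were 8 clusters and 67 regions in clusters. With summits more than 3 kb from a start, the CAGCTG excess was −0.995 (dox in DM), 2.68 (DM vs GM no dox), 1.46 (DM vs GM +dox), the TGANTCA share was 0.242 (DM vs GM no dox), 2.33 (DM vs GM +dox), the cluster share was −0.158 (DM vs GM no dox), the all-or-none was 1.33% (dox in DM), 1.82% (DM vs GM no dox) and there were 68 clusters and 374 regions in clusters. With all deposited peaks, the cluster share was −0.143 (dox in GM), −0.0593 (dox in DM), −0.140 (DM vs GM no dox), the TGANTCA excess was −0.551 (dox in DM), −0.510 (DM vs GM +dox), the CAGCTG excess was 1.02 (DM vs GM no dox), 0.274 (DM vs GM +dox), the TGANTCA share was 0.330 (DM vs GM +dox), the all-or-none was 0.637% (DM vs GM no dox), 0.799% (DM vs GM +dox) and the non-overlap was 14.2% (dox in DM), 0.885% (DM vs GM no dox). With all 16 libraries, the CAGCTG share was −0.316 (dox in DM), the CAGCTG excess was −2.58 (dox in DM), 2.45 (DM vs GM no dox), the TGANTCA excess was −2.38 (dox in DM), −0.0518 (DM vs GM +dox), the cluster share was −0.160 (DM vs GM no dox) and the all-or-none was 0.765% (dox in DM). With motifs within 50 bp, the TGANTCA share was 1.21 (dox in GM), 2.17 (DM vs GM no dox), 0.105 (DM vs GM +dox), the TGANTCA excess was −0.536 (dox in DM), 0.440 (DM vs GM no dox) and the CAGCTG excess was 0.162 (DM vs GM +dox). With the replicate block, the TGANTCA share was 0.648 (DM vs GM +dox). Within replicate numbers 1 and 2, the cluster share was −0.0407 (dox in GM), 0.765 (dox in DM), 0.577 (DM vs GM +dox) and the CAGCTG excess was −0.103 (dox in DM), 0.664 (DM vs GM no dox). Within replicate numbers 3 and 4, the CAGCTG excess was −0.0381 (dox in GM), the cluster share was 0.109 (dox in GM), the TGANTCA share was 0.214 (DM vs GM +dox) and the TGANTCA excess was −0.783 (DM vs GM +dox).

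Leaving out 1 library at a time gave ranges of −1.12 to 0.218 for the CAGCTG excess (DM vs GM no dox), 0.548% to 1.97% for the all-or-none (dox in GM), 3.72% to 5.68% for the all-or-none (DM vs GM no dox), 0% to 3.54% for the non-overlap (dox in GM), 5.31% to 13.3% for the non-overlap (DM vs GM no dox), −1.27 to 0.648 for the TGANTCA share (DM vs GM +dox), −0.354 to 0.95 for the TGANTCA excess (DM vs GM +dox), 3.95% to 8.19% for the all-or-none (DM vs GM +dox), 4.42% to 15% for the non-overlap (DM vs GM +dox), −0.105 to 1.23 for the CAGCTG excess (dox in DM), 3.47% to 6.39% for the all-or-none (dox in DM) and 6.19% to 9.73% for the non-overlap (dox in DM). Members called by limma then numbered 0 to 1 with dox in DM, 2 to 10 for DM vs GM no dox and 6 to 30 for DM vs GM +dox. The all-or-none and non-overlap rules loosen with fewer libraries, so their calls could only be added.

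The limma alternatives, and unions built without 1 library, were chosen after seeing the data. With the replicate block limma called 5 members with dox in GM, 23 with dox in DM, 62 for DM vs GM no dox and 67 for DM vs GM +dox, where without it the counts were 0, 1, 12 and 18. Without dox 2 of 3 same-numbered pairs of DM and GM libraries deviated together (r of 0.292 and 0.541). The pair of replicate 3 had r of 0.0848, and 0.102 with another number, so the pairing is less clear there. Dividing by the genome-wide background gave 0 members in all 4 comparisons, and requiring peaks in the 2 groups compared alone gave 0 with dox in DM. Members without a peak in every library compared could not be fitted, and with 3 libraries against 3 no permutation test could pass.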
